A study of Mus musculus with 22 samples.

Results

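Granulocyte-monocyte progenitors (GMP) of Arid1a knockout mice were compared with wild-type GMP. The comparison used 6 of the 22 libraries of the series, 3 from KO mice (301, 304 and 308) and 3 from WT mice (300, 305 and 309), chosen by their labelled population and genotype. Mice of both groups carried 2 Arid1a alleles with loxP sites around exon 9 on a C57BL/6 background, and both groups were given poly(I:C) as adults, weeks before the sort. KO mice were Arid1a f/f;Mx1-Cre+ and WT mice, labelled wild type, were Arid1a f/f;Mx1-Cre-. GMP were sorted from bone marrow as Lin-Kit+Sca1-CD34+FcγRII/III-high cells, and libraries were made from poly-A RNA. The Mx1 promoter that drives Cre responds to interferon and is active in other cell types too, so the line is not a GMP-specific knockout. In bulk RNA from a sorted gate, fewer cells of a type and less RNA per cell cannot be told apart.

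ARID1A is a large subunit of the canonical BAF form of SWI/SNF, a complex that uses ATP to slide and evict nucleosomes and keeps enhancers accessible. Its paralogue ARID1B takes the same place in the complex, so each complex holds one or the other. GMP arise from common myeloid progenitors (CMP) and give rise to neutrophils and monocytes, and the gate can also hold precursors of eosinophils, basophils and mast cells. PU.1, C/EBP factors, GFI1, IRF8 and GATA2 are known to divide these fates, and neutrophil precursors make azurophil (primary) granule proteins before those of secondary and tertiary granules.

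Between 49399590 and 60703872 estimated counts per GMP library fell on annotated genes. Normalised over the CMP, GMP and megakaryocyte-erythroid progenitor (MEP) libraries together, the level of Mpo in CPM (counts scaled to a common library size) was 24850 ± 1271 (SD, n = 3) in WT GMP, 3773 ± 392 in WT CMP and 30.5 ± 13.8 in WT MEP. Fcgr3, which encodes part of the antigen used for the sort, stood at 231 ± 9.69, 8.82 ± 2.01 and 0.615 ± 0.314 CPM. Both markers were thus highest in GMP. WT mouse 305 had 1670 CPM of Xist against at most 1.53 CPM in the other GMP donors. It and KO mouse 304 had at most 2.73 CPM on each of 4 Y-linked genes, and the other 4 mice at least 29.67 CPM. Results that changed without these mice are given where they arise.

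Arid1a (ENSMUSG00000007880, chr4:133679008-133756769, minus strand, GRCm38) was lower in every KO mouse, at 303, 405 and 331 CPM in the WT mice and 239, 281 and 269.4 CPM in the KO mice. All values below keep this order of mice, 300, 305 and 309 for WT and 301, 304 and 308 for KO, and are normalised over the 6 GMP libraries. The log2 fold change was -0.40, SE 0.11 (adjusted p = 0.0246). Estimated counts were summed over whole transcripts, so transcripts that lack 1 exon still gave counts and the value does not measure the deletion.

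At a false discovery rate (FDR) of 0.1, 2874 of 16383 genes were higher in KO GMP (17.5%) and 2676 were lower (16.3%), together 33.9%. Every KO mouse lay above every WT mouse for 21.5% of genes and below every WT mouse for 20.8%. With this many genes called, the share of each gene list is read against those percentages. Among lists of at least 6 tested genes, NADPH oxidase and primary granule genes had the largest shares called higher, and basophil, mast cell and eosinophil genes the largest share called lower.

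**Figure D1:**
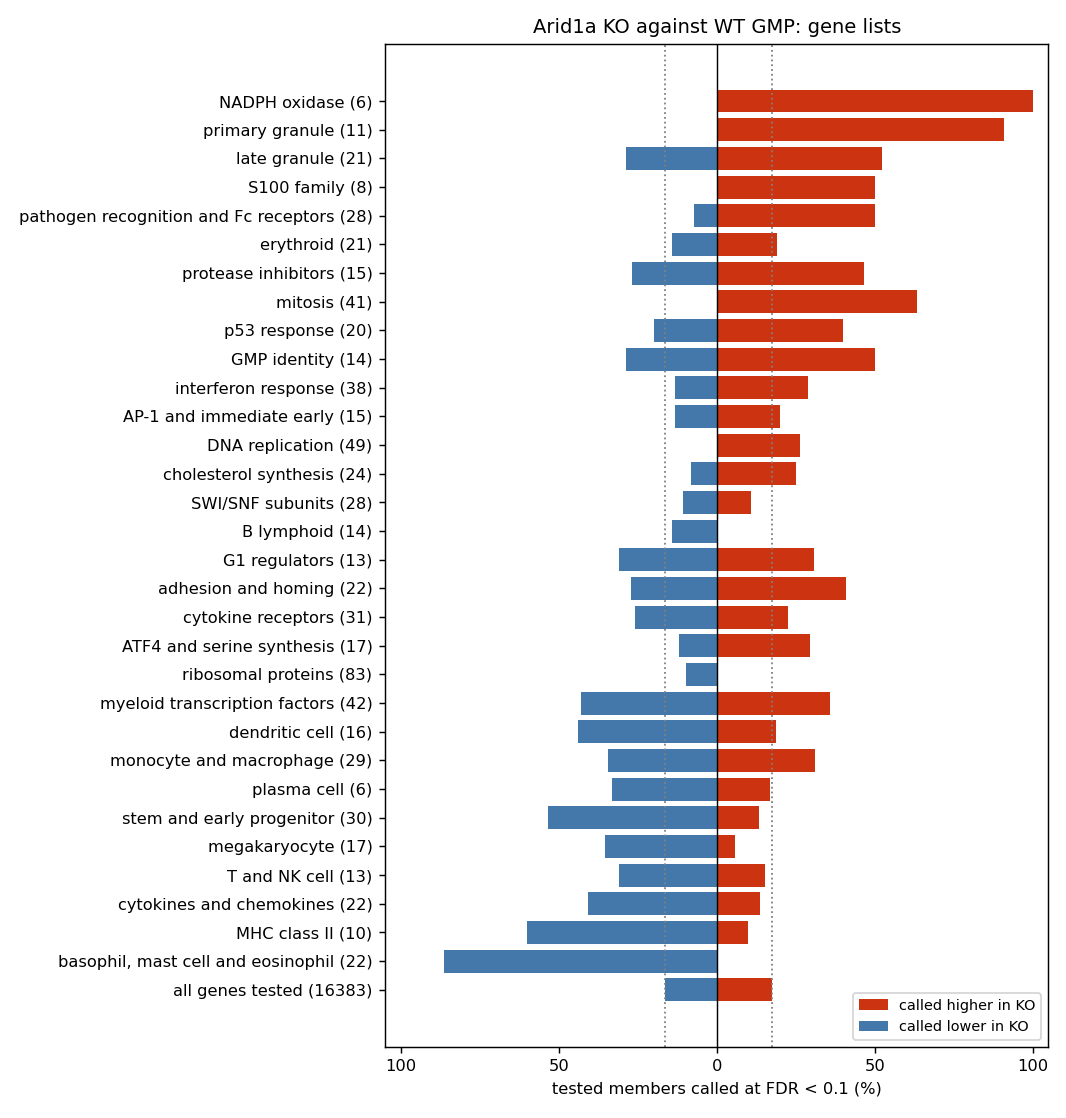
Share of tested members of each gene list called higher (red, right) or lower (blue, left) in KO GMP at an FDR of 0.1, with the number tested in brackets, lists ordered by median log2 fold change and dotted lines at the shares over all genes. All 6 oxidase genes and 10 of 11 primary granule genes were higher, and 19 of 22 basophil, mast cell and eosinophil genes were lower.

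Most primary granule genes rose together. Of 11 tested, 10 were higher and none was lower, with a median log2 fold change of 0.68 against -0.01 over all genes. Elane (neutrophil elastase, chr10:79886247-79888215, plus strand) was at 4162, 3510 and 3342 CPM in the WT mice and 5824, 7088 and 5668 CPM in the KO mice (log2 fold change 0.75, SE 0.12, adjusted p = 0.00168). Prtn3 (proteinase 3) was at 2800, 2884 and 2445 CPM in WT and 4656, 5205 and 4448 CPM in KO (log2 fold change 0.82, SE 0.10, adjusted p = 0.000352). Srgn (serglycin, the proteoglycan on which granule proteases are packed) was at 1243, 888 and 955 CPM in WT and 2039, 2137 and 1857 CPM in KO (log2 fold change 0.97, SE 0.13, adjusted p = 0.000525). Every KO mouse exceeded every WT mouse for each of these genes. Mpo (myeloperoxidase) was by far the most abundant of them, at 25280, 23780 and 22650 CPM in WT and 29880, 31270 and 28460 CPM in KO, and rose less (log2 fold change 0.32, SE 0.11, adjusted p = 0.0525). Its call was lost without KO mouse 301 (adjusted p = 0.140), WT mouse 305 (0.131) or WT mouse 309 (0.191) and when the 18 CMP, GMP and MEP libraries shared 1 fit (0.370). Ctsg (cathepsin G), Prss57 (a granule serine protease), Lyz2 (lysozyme), Ctsd (cathepsin D) and Gusb (beta-glucuronidase) rose as well, with log2 fold changes from 0.23 in Gusb to 0.93 in Lyz2. Ctsc (cathepsin C), which activates the granule proteases, was not called (-0.15). Bpi, also on the list, was under the count filter, at 0.146, 0.174 and 0.243 CPM in WT and 0, 0.0199 and 0 CPM in KO. With no count filter 10 of 12 genes were higher and 1 was lower. Exons of Mpo and Prtn3 overlap less abundant genes on the other strand, whose reads may be shared. The summed level of primary granule genes was 32530 to 37100 CPM in WT and 44860 to 50690 CPM in KO mice. Over the same mice the summed level of basophil, mast cell and eosinophil genes was 3779 to 7192 CPM in WT and 1360 to 2227 CPM in KO, and the part of that change in the granule result was not tested.

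The promoters of this group are shown because Spi1, which encodes PU.1, rose as well. Each is the 250 bases before the start site from RefSeq (GRCm38.p6), with the PU.1-type pattern GAGGAA, searched on both strands, in capitals.
Elane (chr10:79886062-79886311, plus strand): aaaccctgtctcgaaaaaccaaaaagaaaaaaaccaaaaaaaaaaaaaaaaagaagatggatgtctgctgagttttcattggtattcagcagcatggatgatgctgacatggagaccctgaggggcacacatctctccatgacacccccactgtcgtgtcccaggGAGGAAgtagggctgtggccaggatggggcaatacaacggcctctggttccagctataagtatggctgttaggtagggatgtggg
Prtn3 (chr10:79879417-79879666, plus strand): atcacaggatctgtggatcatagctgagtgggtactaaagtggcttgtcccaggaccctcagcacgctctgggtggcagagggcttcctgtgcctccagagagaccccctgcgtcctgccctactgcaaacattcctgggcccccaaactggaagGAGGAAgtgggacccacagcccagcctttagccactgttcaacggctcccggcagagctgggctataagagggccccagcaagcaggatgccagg
Mpo (chr11:87793534-87793783, plus strand): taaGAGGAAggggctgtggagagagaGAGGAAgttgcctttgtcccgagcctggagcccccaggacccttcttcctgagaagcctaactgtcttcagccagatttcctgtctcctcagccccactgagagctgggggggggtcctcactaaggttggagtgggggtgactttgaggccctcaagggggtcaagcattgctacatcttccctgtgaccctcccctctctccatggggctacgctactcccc
The pattern was found in 5 of 9 primary granule promoters with sequence (55.6%), 10 of 18 late granule promoters (55.6%), 6 of 20 promoters of basophil, mast cell and eosinophil genes (30%) and 22.8% of the 11031 promoters of tested genes. Only promoters with the pattern are shown. Srgn and Lyz2, which also rose, had none, and Ctsc, which was not called, had 2. These shares describe letters in a window and were not tested.

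The late granule list split. It holds genes of secondary and tertiary granules and other late neutrophil genes such as Padi4, Cxcr2 and Ltb4r1. Of 21 tested, 11 were higher and 6 lower, with a median log2 fold change of 0.58. Fcnb (ficolin B, a pattern recognition lectin of neutrophil precursors, chr2:28076378-28084885, minus strand) was at 10.3, 11.8 and 8.99 CPM in the WT mice and 271, 539 and 295 CPM in the KO mice (log2 fold change 5.15, SE 0.28, adjusted p = 5.74e-06). Lcn2 (lipocalin 2, which binds bacterial siderophores) was at 15.2, 8.93 and 7.17 CPM in WT and 57.0, 84.2 and 57.6 CPM in KO (log2 fold change 2.66, SE 0.27, adjusted p = 0.000129). Hp (haptoglobin) was at 194, 213 and 174 CPM in WT and 883, 1151 and 872 CPM in KO (log2 fold change 2.32, SE 0.12, adjusted p = 5.63e-06). Pglyrp1, which binds bacterial peptidoglycan, went the same way (1.66, SE 0.13), and in these 4 genes no KO mouse overlapped a WT mouse. Others of the list fell. Padi4 (the histone citrullinating enzyme of neutrophils) was at 16.8, 25.0 and 11.8 CPM in WT and 2.65, 3.44 and 2.85 CPM in KO (log2 fold change -2.58, SE 0.26, adjusted p = 0.000126). Retnlg (resistin-like gamma) was at 5.07, 4.56 and 4.46 CPM in WT and 0.549, 1.17 and 0.994 CPM in KO (log2 fold change -2.37, SE 0.27, adjusted p = 0.00023). Mmp9 (gelatinase B) and Ltf (lactoferrin) also fell (-1.54 and -2.11), again without overlap, and the Ltf call was lost without WT mouse 300 (adjusted p = 0.122). Ngp and Cd177 were not called (0.20 and 0.06), and both turned negative without KO mouse 304 (-0.53 and -0.69). Camp (cathelicidin) was called higher although its groups overlapped, at 7.71, 0.986 and 2.31 CPM in WT and 7.44, 38.6 and 11.2 CPM in KO, and KO mouse 304 was the highest library for Camp, Chil3 and Lrg1. Without KO mouse 304 none of the 3 was called (adjusted p = 0.181, 0.4065 and 0.1785). The same held without WT mouse 309 (0.163, 0.247 and 0.168), for Camp and Chil3 without WT mouse 305 (0.108 and 0.208), for Lrg1 without WT mouse 300 (0.153), and for Chil3 with DESeq2 (0.151), the length offset (0.111) or the mice paired, by their column order in the study's expression table, as a block (0.160). Leaving out WT mouse 300 left 10 higher and 3 lower (median 1.04), leaving out WT mouse 309 left 7 higher and 4 lower, and leaving out mice 304 and 305 together left 9 and 5 (median 0.29).

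Promoters of 2 late granule genes that rose are shown with the C/EBP-type pattern TTGCNNAA (N is any base, both strands) in capitals, since several C/EBP genes changed.
Fcnb (chr2:28084879-28085128, minus strand): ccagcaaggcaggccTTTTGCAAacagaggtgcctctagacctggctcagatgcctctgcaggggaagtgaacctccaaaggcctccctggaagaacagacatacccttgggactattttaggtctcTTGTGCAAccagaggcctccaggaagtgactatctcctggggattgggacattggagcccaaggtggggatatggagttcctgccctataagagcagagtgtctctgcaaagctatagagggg
Lcn2 (chr2:32387740-32387989, minus strand): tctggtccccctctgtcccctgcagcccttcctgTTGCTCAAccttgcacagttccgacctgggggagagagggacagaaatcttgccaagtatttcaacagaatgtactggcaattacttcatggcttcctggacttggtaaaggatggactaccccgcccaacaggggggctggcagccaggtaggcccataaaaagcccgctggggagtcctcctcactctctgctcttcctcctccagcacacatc
The pattern was found in 7 of 18 late granule promoters (38.9%), none of the 9 primary granule promoters, 5 of 20 promoters of basophil, mast cell and eosinophil genes (25%) and 7.61% of all. Only promoters with the pattern are shown. Ltf and Retnlg, which fell, also had 1 each, and Pglyrp1, which rose, had none. These shares, and any link to the C/EBP genes, some of which rose and some of which fell, were not tested.

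Smaller families known from neutrophils were also counted. In the stefin A cluster, which encodes cysteine protease inhibitors, 3 of 9 genes passed the count filter and all 3 were higher. Stfa1 had no counts in any WT mouse and was at 1.88, 5.12 and 2.33 CPM in KO mice, at least 57.2-fold higher than a floor of 3 counts per library. BC100530 likewise had no counts in WT and was at least 18.2-fold higher. Members of this cluster are near-identical, so counts may be assigned to the wrong copy. S100a8 (a calcium-binding alarmin) was at 30.6, 21.5 and 18.1 CPM in WT and 48.5, 199 and 65.3 CPM in KO (log2 fold change 2.15, SE 0.48, adjusted p = 0.00911). Its partner S100a9 was not called (log2 fold change 1.17, SE 0.62, adjusted p = 0.21), and its value turned to -0.12 without mice 304 and 305. Of 8 S100 genes 4 were higher and none lower (median 0.52), with 1 lower under the block. Of 15 protease inhibitors 7 were higher and 4 lower (median 0.28). The rises included Wfdc17 (3.33, SE 0.38), Wfdc21 (2.95, SE 0.36) and Serpinb1a, an inhibitor of neutrophil elastase (1.06, SE 0.12), and the falls included Serpinb6b (-2.05, SE 0.20).

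All 6 genes of the phagocyte NADPH oxidase, which makes superoxide at the phagosome membrane, were higher in KO GMP, with a median log2 fold change of 0.95. The membrane subunit Cybb (gp91phox) was at 25.9, 36.8 and 33.8 CPM in WT and 89.3, 122 and 105 CPM in KO (log2 fold change 1.71, SE 0.15, adjusted p = 5.48e-05). Its partner Cyba (p22phox) was at 93.8, 86.1 and 90.6 CPM in WT and 191, 207 and 183 CPM in KO (log2 fold change 1.10, SE 0.07, adjusted p = 8.54e-06). The cytosolic subunits Ncf4 (p40phox) and Ncf1 (p47phox) and the GTPase Rac2 had log2 fold changes of 1.32, 0.81 and 0.64, and in all 6 genes the groups were separate. All 6 calls were kept in each alternative run. The granule, oxidase and integrin genes with the clearest separation are plotted by mouse.

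**Figure D2:**
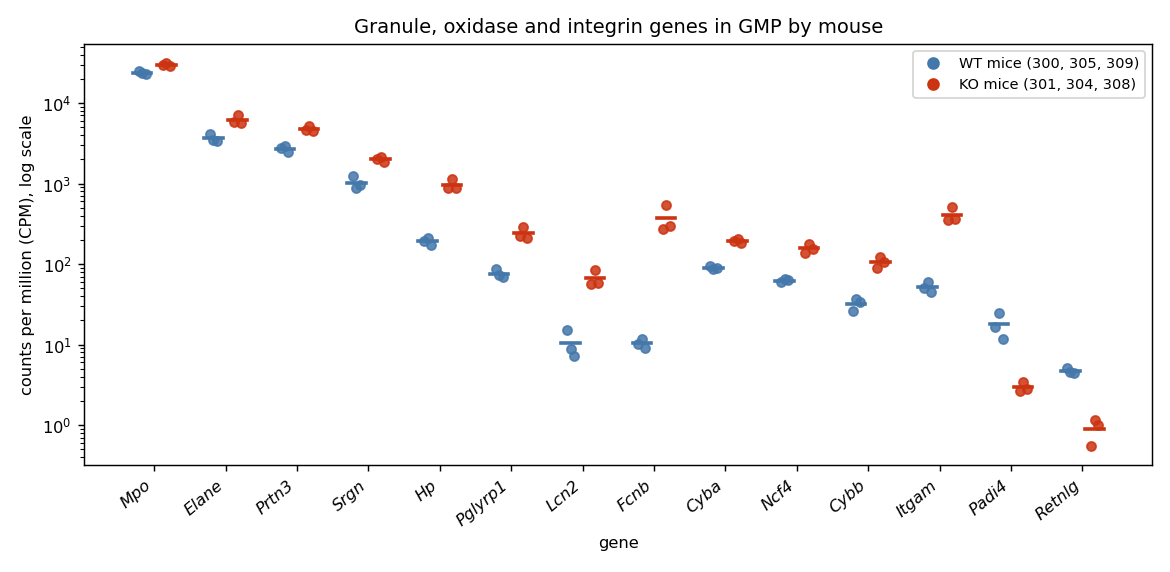
CPM on a log axis in each of the 6 GMP libraries for granule, oxidase and integrin genes, with WT mice in blue, KO mice in red and a bar at each group's mean. The 3 KO points lie above the 3 WT points from Mpo to Itgam and below them for Padi4 and Retnlg.

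Receptors by which phagocytes sense microbes and antibody were among the rises. Of 28 pathogen recognition and Fc receptor genes 14 were higher and 2 lower (median 0.48), with 4 lower under the block or in DESeq2, 1 without any one of the KO mice and none without WT mouse 309. Clec4a2 (a C-type lectin receptor) was at 26.6, 15.5 and 21.6 CPM in WT and 115, 110.5 and 113 CPM in KO (log2 fold change 2.41, SE 0.16, adjusted p = 1.87e-05). Trem1 (an amplifier of inflammatory signals) was at 23.7, 20.5 and 18.8 CPM in WT and 59.2, 58.7 and 53.8 CPM in KO (log2 fold change 1.45, SE 0.09, adjusted p = 1.36e-05). Tlr4 (the lipopolysaccharide receptor) was at 21.4, 22.7 and 18.1 CPM in WT and 40.4, 46.0 and 36.1 CPM in KO (log2 fold change 0.98, SE 0.11, adjusted p = 0.00024). None of these overlapped between the groups. The adaptors Fcer1g and Tyrobp, which carry signals for Fc and TREM receptors, rose by 1.03 and 0.67 on the log2 scale, and Myd88, the adaptor of most Toll-like receptors, by 0.48. Fcgr2b, the inhibitory Fc receptor bound by the sorting antibody, was higher (0.47, SE 0.07). Fcgr3 was not called (0.02, SE 0.09), and its sign changed to -0.09 without KO mouse 304, -0.03 without WT mouse 305 and -0.13 without both. Outside the list, Cd300lf (an inhibitory receptor of myeloid cells) was at 0.845, 0.793 and 0.802 CPM in WT and 13.1, 25.7 and 18.5 CPM in KO (log2 fold change 4.55).

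Adhesion receptors went both ways, with 9 of 22 higher and 6 lower. Itgam (the alpha chain of Mac-1, chr7:128062640-128118491, plus strand) was at 51.0, 60.4 and 45.4 CPM in the WT mice and 350.3, 505 and 364 CPM in the KO mice (log2 fold change 2.96, SE 0.16, adjusted p = 5.63e-06). Its partner Itgb2 (CD18) was at 60.4, 53.3 and 63.6 CPM in WT and 79.4, 115 and 93.0 CPM in KO (log2 fold change 0.70, SE 0.13, adjusted p = 0.00337). KO and WT ranges were separate for both. Itga6 and Itgal (the alpha chain of LFA-1) rose by 1.08 and 0.80 on the log2 scale. The fibronectin receptor chains Itga5 and Itgb1 fell (-0.49 and -0.46), as did Vcam1, a ligand of integrin alpha 4 (-1.74), and Cd47, the signal that restrains phagocytosis (-0.54).

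Of 31 cytokine receptor genes 7 were higher (22.6%) and 8 lower (25.8%), against 17.5% and 16.3% over all genes. Csf3r (the G-CSF receptor, which drives neutrophil production) was at 223, 224 and 199.6 CPM in WT and 334, 450.4 and 347 CPM in KO (log2 fold change 0.81, SE 0.11, adjusted p = 0.000758). Csf2rb (the shared beta chain of the GM-CSF, IL-3 and IL-5 receptors) was at 155, 162 and 156 CPM in WT and 271, 323 and 288 CPM in KO (log2 fold change 0.90, SE 0.07, adjusted p = 3.91e-05), and its near-identical paralogue Csf2rb2, with which it may share reads, rose by 1.26. Il5ra (the IL-5 receptor alpha chain, used by eosinophils) was at 9.25, 12.4 and 14.9 CPM in WT and 1.91, 3.76 and 2.56 CPM in KO (log2 fold change -2.15, SE 0.26, adjusted p = 0.000342). The beta chain and Il5ra thus went opposite ways, each without overlap. Csf2ra and Il4ra rose (0.63 and 1.03), and Il3ra fell (-0.35). Csf1r (the M-CSF receptor of monocytes) was at 66.3, 104 and 93.6 CPM in WT and 59.2, 43.0 and 70.1 CPM in KO, with overlapping groups (log2 fold change -0.61, SE 0.19, adjusted p = 0.045). The Csf1r call was lost without KO mouse 304 (adjusted p = 0.116), WT mouse 305 (0.120), WT mouse 309 (0.123) or mice 304 and 305 together (0.185).

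Of 22 cytokine and chemokine genes 3 were higher and 9 lower (median -0.79). Csf1, which encodes M-CSF itself, was at 28.5, 25.2 and 29.5 CPM in WT and 1.88, 3.32 and 2.62 CPM in KO (log2 fold change -3.41). Il6, Il15, Hgf and the chemokine gene Ccl9 had log2 fold changes of -2.71, -1.03, -0.98 and -1.26, and no KO mouse reached a WT mouse in any of them. Cxcl10 and Tgfb1 were higher (1.60 and 0.30). Without KO mouse 301, and with the mice paired by column as a block, 5 genes were higher.

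Genes of eosinophils, basophils and mast cells fell, with 19 of 22 lower and none higher (median log2 fold change -1.79). Prg2 (major basic protein of eosinophil granules, chr2:84980461-84983632, plus strand) was at 1559, 2989 and 3645 CPM in the WT mice and 449.9, 947 and 682 CPM in the KO mice (log2 fold change -1.98, SE 0.33, adjusted p = 0.00208). Epx (eosinophil peroxidase) was at 579, 1575 and 1288 CPM in WT and 207, 481 and 324 CPM in KO (log2 fold change -1.76, SE 0.38, adjusted p = 0.00769). WT mouse 300 was the lowest WT library for both, yet stood above every KO mouse. The eosinophil ribonuclease genes Ear1, Ear2 and Ear6, near-identical copies whose counts may be misassigned, had log2 fold changes of -1.74, -2.33 and -2.31. Prss34 (a basophil serine protease) was at 118, 164 and 294 CPM in WT and 5.87, 4.84 and 8.70 CPM in KO (log2 fold change -4.89, SE 0.36, adjusted p = 2.72e-05). Mcpt8 (mast cell protease 8, a basophil marker) was at 121, 121 and 191 CPM in WT and 28.4, 20.1 and 28.3 CPM in KO (log2 fold change -2.49, SE 0.20, adjusted p = 4.02e-05). Cpa3 (mast cell carboxypeptidase) was at 273, 118 and 234 CPM in WT and 53.8, 29.9 and 53.7 CPM in KO (log2 fold change -2.18, SE 0.32, adjusted p = 0.000937). The 3 genes were lower in each KO mouse than in any WT mouse. The alpha and beta chains of the high-affinity IgE receptor, Fcer1a and Ms4a2, fell by 2.34 and 1.48 on the log2 scale, while its gamma chain Fcer1g, which other receptors share, rose as given above. Siglecf, Hdc and Ccr3 were not called (0.19, -0.13 and -0.68). With the mice paired as a block Siglecf was called higher (0.21, adjusted p = 0.0909), and without WT mouse 305 Hdc was called lower (-0.22, adjusted p = 0.0625). Mcpt4, Tpsb2, Tpsab1 and Cma1, proteases of mature mast cells, were under the count filter. Without mice 304 and 305, 20 genes were lower (median -1.94).

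Promoters of 3 genes that fell are shown because Gata2 and Gata1 fell with them. Capitals mark the GATA-type patterns AGATAA or TGATAA on either strand.
Ms4a2 (chr19:11623720-11623969, minus strand): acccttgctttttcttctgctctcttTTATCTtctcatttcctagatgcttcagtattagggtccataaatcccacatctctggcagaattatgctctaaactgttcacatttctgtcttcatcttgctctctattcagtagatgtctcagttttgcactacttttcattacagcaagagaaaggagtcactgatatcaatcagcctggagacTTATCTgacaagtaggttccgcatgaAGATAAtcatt
Prss34 (chr17:25298144-25298393, plus strand): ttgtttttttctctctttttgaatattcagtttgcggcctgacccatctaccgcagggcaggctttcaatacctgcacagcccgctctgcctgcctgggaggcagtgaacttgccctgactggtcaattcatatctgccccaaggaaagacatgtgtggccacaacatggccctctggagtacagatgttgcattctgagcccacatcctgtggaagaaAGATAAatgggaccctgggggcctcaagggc
Cpa3 (chr3:20242182-20242431, minus strand): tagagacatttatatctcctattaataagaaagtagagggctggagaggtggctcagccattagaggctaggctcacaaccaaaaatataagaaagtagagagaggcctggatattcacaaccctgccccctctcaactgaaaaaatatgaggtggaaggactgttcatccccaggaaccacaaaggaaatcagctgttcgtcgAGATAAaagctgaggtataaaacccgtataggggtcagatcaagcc
The patterns were found in 8 of 20 promoters of basophil, mast cell and eosinophil genes (40%), 3 of 18 late granule promoters (16.7%), none of the 9 primary granule promoters and 9.84% of all. Only promoters with a pattern are shown. Mcpt8 and Epx, which also fell, had none, and Ccr3, which was not called, had 1. Gata2 and Gata1, themselves on the list, had none. These shares, and any link to the change in Gata2 and Gata1, were not tested.

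**Figure D3:**
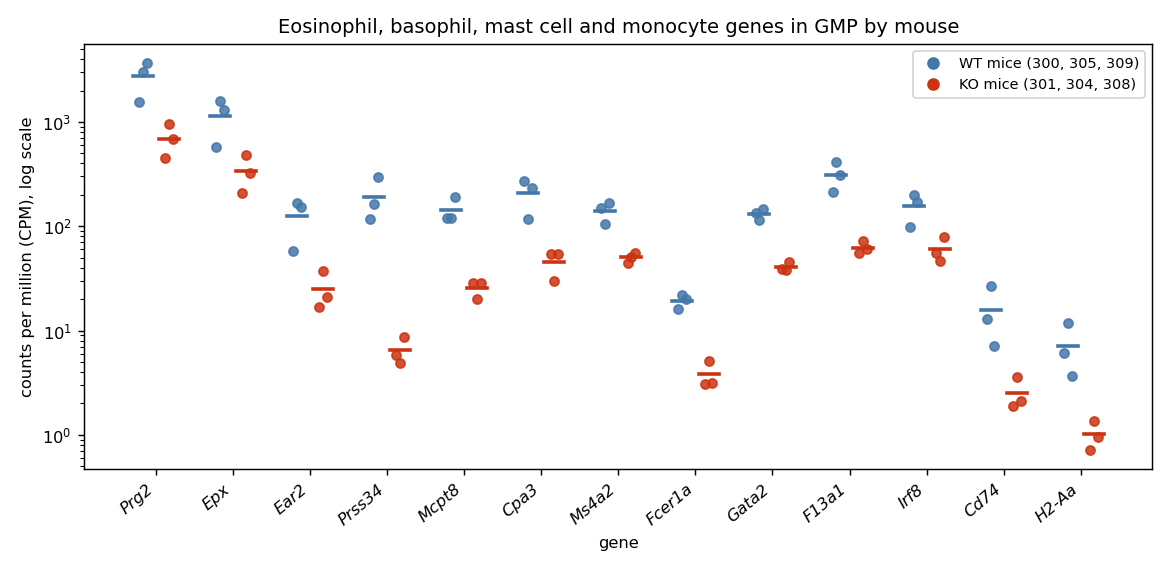
CPM on a log axis in each GMP library for eosinophil, basophil, mast cell, monocyte and antigen presentation genes, with WT mice in blue, KO mice in red and a bar at each group's mean. Only genes that fell are shown, and in each the 3 KO points lie below the 3 WT points. Of the tested list members, 9 of 29 monocyte and macrophage genes and 1 of 10 MHC class II genes were higher.

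Monocyte and macrophage genes did not move as a block, with 9 of 29 higher and 10 lower (median -0.25). F13a1 (coagulation factor XIII A, abundant in monocyte progenitors) was at 212, 411 and 310.3 CPM in WT and 55.1, 71.9 and 60.2 CPM in KO (log2 fold change -2.32, SE 0.21, adjusted p = 8.21e-05). Ly86 (MD-1, a partner of RP105) was at 16.8, 26.1 and 27.4 CPM in WT and 7.35, 3.92 and 10.2 CPM in KO (log2 fold change -1.71, SE 0.31, adjusted p = 0.00312). Cd68 fell as well (-1.12), and all 3 were lower in each KO mouse. Tgfbi (a secreted matrix protein) went up, at 14.6, 20.3 and 14.1 CPM in WT and 197, 179 and 203 CPM in KO (log2 fold change 3.56, SE 0.14, adjusted p = 2.65e-06). Adgre1 (F4/80) was at 7.85, 10.1 and 9.11 CPM in WT and 93.0, 105 and 80.7 CPM in KO (log2 fold change 3.37, SE 0.12, adjusted p = 2.65e-06). Cx3cr1 (the fractalkine receptor) was at 13.3, 17.5 and 18.5 CPM in WT and 60.0, 54.9 and 62.4 CPM in KO (log2 fold change 1.85, SE 0.12, adjusted p = 1.4e-05). These rises were without overlap too. The summed level of the list was 1747 to 2220 CPM in WT and 1898 to 2149 CPM in KO mice.

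MHC class II genes were lower in 6 of 10 tested and higher in 1 (median -0.94). H2-Aa (a class II alpha chain) was at 6.06, 11.8 and 3.64 CPM in WT and 0.720, 1.37 and 0.956 CPM in KO (log2 fold change -2.82, SE 0.43, adjusted p = 0.0013). Cd74 (the invariant chain) was at 13.04, 27.0 and 7.13 CPM in WT and 1.88, 3.56 and 2.10 CPM in KO (log2 fold change -2.65, SE 0.46, adjusted p = 0.00252). Ciita, the transactivator of this gene class, was low in all libraries and fell (-2.37, SE 0.58). For these genes WT mouse 305 was the highest library. H2-DMb2, a peptide-loading chain, went against them, at 1.66, 1.64 and 1.14 CPM in WT and 8.05, 8.32 and 9.33 CPM in KO (log2 fold change 2.53, SE 0.18, adjusted p = 2.28e-05). Of 16 dendritic cell genes 3 were higher and 7 lower (median -0.20). B2m, the light chain of MHC class I, was at 902, 881 and 761 CPM in WT and 616, 708 and 513 CPM in KO (log2 fold change -0.47, SE 0.12, adjusted p = 0.0167).

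Of 42 myeloid transcription factor genes 15 were higher and 18 lower (median -0.15), shares of 35.7% and 42.9%. Gfi1 (a repressor required for neutrophil differentiation) was at 206, 194 and 175 CPM in WT and 324, 437 and 329 CPM in KO (log2 fold change 0.92, SE 0.12, adjusted p = 0.000474). Cebpe (the C/EBP factor of the step from promyelocyte to myelocyte) was at 100, 94.5 and 92.6 CPM in WT and 132, 162 and 129.7 CPM in KO (log2 fold change 0.56, SE 0.09, adjusted p = 0.00152). Spi1 (PU.1) was at 191, 172 and 177 CPM in WT and 262, 289.7 and 267 CPM in KO (log2 fold change 0.60, SE 0.07, adjusted p = 0.000211). All 3 were higher in each KO mouse. Cebpd, Bcl6 and Tfec rose by 1.21, 1.08 and 0.83 on the log2 scale. Id1, which encodes an inhibitor of bHLH factors, was at 4.96, 4.16 and 4.81 CPM in WT and 26.4, 30.3 and 27.9 CPM in KO (log2 fold change 2.60, SE 0.10, adjusted p = 2.65e-06), and Id2, of the same family, rose by 2.10. Cebpb was called higher close to the threshold (log2 fold change 0.28, SE 0.11, adjusted p = 0.0969), a call lost without any one of mice 300 (adjusted p = 0.188), 304 (0.226), 308 (0.269) or 309 (0.360), with median-of-ratios size factors (0.101), with the length offset (0.144) and when 18 libraries shared 1 fit (0.373). Cebpa, which is needed to form GMP, was lower, at 291, 290.4 and 282 CPM in WT and 210.3, 231 and 211 CPM in KO (log2 fold change -0.41, SE 0.06, adjusted p = 0.00106), as was Cebpg (-0.55). The Cebpa call was lost when 18 libraries shared 1 fit (adjusted p = 0.123).

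The falls included Gata2 (a factor of stem, mast and basophil cells), at 135, 115 and 147 CPM in WT and 38.9, 37.6 and 45.4 CPM in KO (log2 fold change -1.70, SE 0.11, adjusted p = 1.11e-05). Irf8, which directs monocyte and dendritic fate, was at 98.3, 198 and 171 CPM in WT and 55.4, 46.7 and 78.8 CPM in KO (log2 fold change -1.37, SE 0.26, adjusted p = 0.00396). Runx1, a factor of blood formation at many stages, was at 139, 140.3 and 147 CPM in WT and 87.6, 95.8 and 88.8 CPM in KO (log2 fold change -0.64, SE 0.06, adjusted p = 7.48e-05). Groups were separate for all 3. Rxra (a retinoid X receptor) fell by 2.28 on the log2 scale, Ikzf2 (Helios) by 1.93, Gata1 by 0.90 and Zeb2 by 0.82. Myc fell by 0.23, a call lost without KO mouse 301 (adjusted p = 0.163), KO mouse 308 (0.126) or mice 304 and 305 together (0.108). Myb and Lmo2 were not called (-0.08 and -0.02). The plot of fold changes gives all 42.

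**Figure D4:**
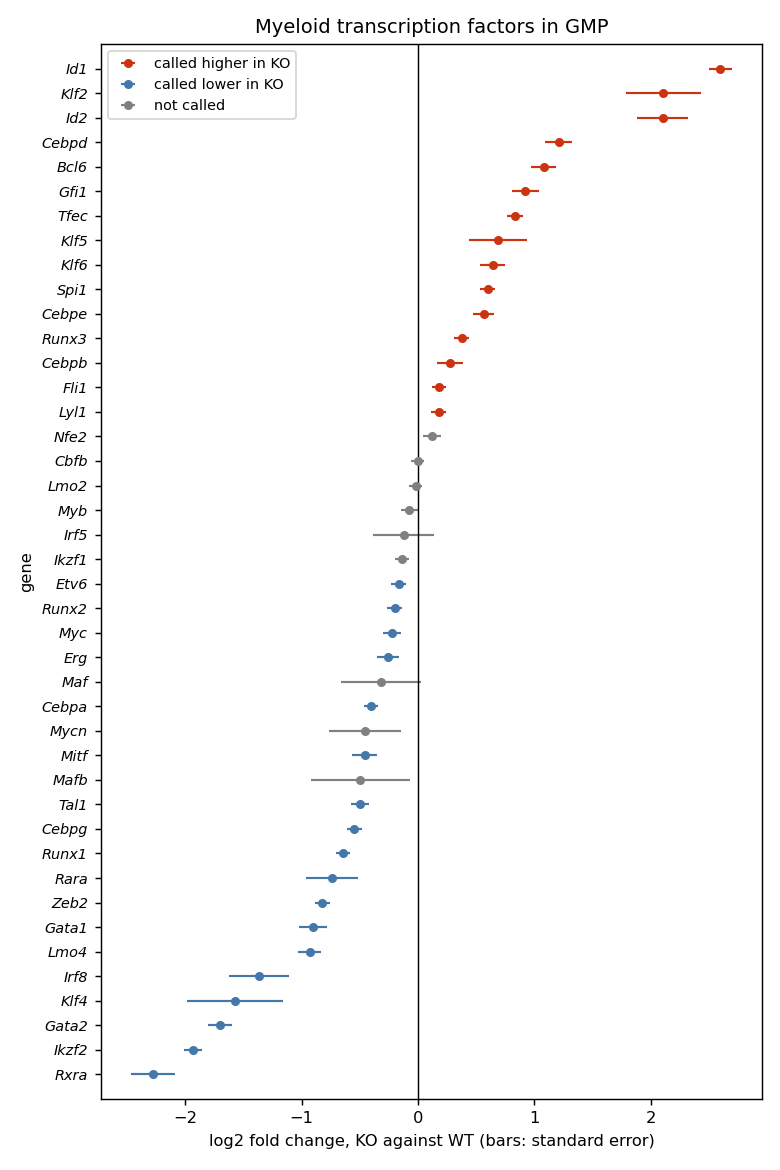
Log2 fold change of KO against WT GMP, with its standard error, for the 42 tested myeloid transcription factor genes, red where called higher, blue where called lower and grey where not called. Id1 is at the top with 2.60 and Rxra at the bottom with -2.28.

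Stem and early progenitor genes were lower in 16 of 30 and higher in 4 (median -0.45). Cd27 (a TNF receptor family member) was at 85.5, 75.1 and 74.7 CPM in WT and 40.5, 41.9 and 37.6 CPM in KO (log2 fold change -0.97, SE 0.08, adjusted p = 3.7e-05). Adgrg1 (an adhesion G protein-coupled receptor of stem cells) was at 564, 417 and 532 CPM in WT and 319.7, 249 and 306 CPM in KO (log2 fold change -0.79, SE 0.13, adjusted p = 0.00166). Cd34 (a sialomucin and gate antigen) was at 474, 441 and 474 CPM in WT and 388, 267 and 348 CPM in KO (log2 fold change -0.47, SE 0.12, adjusted p = 0.0189). Each KO mouse lay below each WT mouse, and the Cd34 call was lost when 18 libraries shared 1 fit (adjusted p = 0.505). Tek, Angpt1, Hlf and Meis1 fell (-2.47, -0.81, -0.67 and -0.49), the Meis1 call being lost when 18 libraries shared 1 fit (adjusted p = 0.143), and Prom1 (CD133) rose (1.95, SE 0.17). Kit, the stem cell factor receptor and a gate antigen, was not called (-0.02), and its sign changed without WT mouse 300 (0.02) or KO mouse 308 (0.01). Without WT mouse 309, 2 genes of the list were higher.

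Genes of other blood lineages were also counted. Megakaryocyte genes were lower in 6 of 17 and higher in 1 (median -0.50), among them Itga2b (-0.98) and Zfpm1, which encodes the GATA partner FOG-1 (-0.95); without WT mouse 305, 12 were lower. With the block 2 were higher, and none was without any one of mice 301, 304, 308 or 309. Erythroid genes were higher in 4 of 21 (19%) and lower in 3 (14.3%, median 0.31), near the shares over all genes, with none of the globin genes among them. In this list 8 were higher without WT mouse 300 and 2 without KO mouse 308, while 1 was lower without KO mouse 301 or WT mouse 309. Of 14 B cell genes 2 were lower and none higher (median 0.02), with 1 lower without WT mouse 309 and 1 higher under the block, and of 13 T and NK cell genes 4 were lower and 2 higher (median -0.59), with 7 lower without mice 304 and 305. The defining markers Pax5 and Cd3e were under the count filter. Of 6 plasma cell genes 2 were lower and 1 higher. Of these, Igha (an antibody heavy chain) was at 73.3, 37.0 and 49.9 CPM in WT and 16.1, 11.5 and 16.5 CPM in KO (log2 fold change -1.86, SE 0.24, adjusted p = 0.000454), and Jchain, which joins antibody units, was at 17.96, 7.31 and 12.9 CPM in WT and 4.83, 2.31 and 3.98 CPM in KO (log2 fold change -1.78, SE 0.34, adjusted p = 0.0045). Of 15 tested immunoglobulin segments 4 were lower and none higher, and 7 to 14 were lower when single mice were left out and 7 under the block. Ighv5-17, the strongest of these, had no counts in any KO mouse and was at 1.98, 1.10 and 1.57 CPM in WT mice, at least 26.7-fold lower in KO. Segments share near-identical sequence, so their identity is uncertain.

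Of 41 mitosis genes 26 were higher and none lower (median 0.19). Aurka (Aurora A kinase) was at 62.4, 63.2 and 61.4 CPM in WT and 80.2, 87.2 and 77.9 CPM in KO (log2 fold change 0.39, SE 0.06, adjusted p = 0.00182). Plk1 (polo-like kinase 1) was at 75.4, 87.4 and 83.5 CPM in WT and 104, 114 and 105 CPM in KO (log2 fold change 0.39, SE 0.07, adjusted p = 0.00349). Leaving out WT mouse 300 left 17 higher and 1 lower, and leaving out KO mouse 301 left 17 higher. Of 49 DNA replication genes 13 were higher and none lower (median 0.11), with 8 higher without WT mouse 309, and 22 with the mice paired by column. Rrm2 (a ribonucleotide reductase subunit) and Ccne1 (cyclin E1) rose by 0.58 and 0.87 on the log2 scale. Of 13 regulators of G1, 4 were higher and 4 lower, with 2 lower without WT mouse 309, without a count filter or in DESeq2. Ccnd3 (cyclin D3) was at 123, 121 and 113 CPM in WT and 171, 189 and 177 CPM in KO (log2 fold change 0.59, SE 0.06, adjusted p = 0.000157). Ccnd1 (cyclin D1) was at 13.8, 12.9 and 21.4 CPM in WT and 6.30, 1.77 and 9.33 CPM in KO (log2 fold change -1.46, SE 0.46, adjusted p = 0.0444), a call lost without WT mouse 309 (adjusted p = 0.151). Cdkn1a (p21) rose (0.82) and Cdkn1b (p27) fell (-0.32).

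Among SWI/SNF subunits, Arid1a included, 3 of 28 were higher and 3 lower (median 0.03), shares of 10.7% each, under the background. Without any one of WT mouse 300, KO mouse 301 or WT mouse 309, 1 was higher. Arid1b was at 177, 172 and 172 CPM in WT and 168, 147 and 155 CPM in KO (log2 fold change -0.15, SE 0.06, adjusted p = 0.115). The KO mice were below the WT mice although the test did not pass. With the mice paired by column as a block its log2 fold change was -0.15 (adjusted p = 0.0372), and 5 subunits were higher and 5 lower. Without KO mouse 301 Arid1b was also called (-0.22, adjusted p = 0.0444). Smarca4 (BRG1, an ATPase of the complex) was at 248, 275 and 242 CPM in WT and 307, 303 and 289 CPM in KO (log2 fold change 0.23, SE 0.07, adjusted p = 0.0273), a call lost without WT mouse 300 (adjusted p = 0.115), KO mouse 301 (0.128) or WT mouse 309 (0.145). Dpf3 (a subunit that binds histone tails) was low and fell, at 1.66, 1.10 and 1.47 CPM in WT and 0.435, 0.438 and 0.593 CPM in KO (log2 fold change -1.53, SE 0.28, adjusted p = 0.00337).

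Some of the largest single changes lay outside these lists. Tspan9 (a tetraspanin) was at 11.2, 10.3 and 7.72 CPM in WT and 0.189, 0.139 and 0.0765 CPM in KO (log2 fold change -6.15). Klk8 (a kallikrein protease) was at 9.87, 6.00 and 10.4 CPM in WT and 0.227, 0.0597 and 0.172 CPM in KO (-5.80). Emid1 (a secreted protein) was at 27.5, 21.6 and 22.8 CPM in WT and 0.473, 0.478 and 0.363 CPM in KO (-5.77). Afap1 (an actin filament adaptor), Ifi209 and Adam3 fell too, with log2 fold changes of -5.02, -4.62 and -4.55. Dsp (desmoplakin) was at 5.06, 4.62 and 3.58 CPM in WT and 111, 155 and 114 CPM in KO (4.84). Ankrd22 was at 0.423, 0.329 and 0.392 CPM in WT and 6.40, 8.64 and 6.50 CPM in KO (4.22). Dnmt3l (an inactive partner of DNA methyltransferases) was at 0.748, 0.735 and 0.597 CPM in WT and 11.1, 9.97 and 9.39 CPM in KO (3.86). Clec4b2 and Rassf10 rose by 3.83 and 3.71 on the log2 scale. In each of these genes the groups were separate, a property the choice of the largest changes required. The noncoding AY036118 (4.41) overlaps more abundant genes on both strands, so its counts are uncertain, and DESeq2 did not call it (adjusted p = 0.212). Igkv1-117 was at 4.50, 1.26 and 1.01 CPM in WT and 0.0189, 0 and 0 CPM in KO. By TPM, which scales for transcript length, the 5 called protein coding genes with the largest loss were Prg2, Rps26, B2m, Ly6e and Epx. Ly6e fell by 0.31 on the log2 scale, and Rps26, a ribosomal protein, by 0.23, a call lost without any one of mice 300 (adjusted p = 0.193), 301 (0.103), 304 (0.174), 308 (0.158) or 309 (0.152).

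Use of transcript isoforms changed in few genes. Of 5430 genes with at least 2 transcripts that each held 10 counts and 10% of their gene, 29 were called (0.534%), by a test that does not carry kallisto's uncertainty in assigning reads to transcripts. With the mice paired by column as a block 14 genes were called, 9 of them among the 29, and without WT mouse 309 there were 8. Tyrobp-202 made up 99.1%, 99.4% and 99.0% of the TPM of Tyrobp (DAP12, the adaptor named above) in WT and 84.6%, 91.5% and 85.2% in KO mice. Tyrobp-201, also annotated as coding, was at 0% in every WT mouse and at 14.7%, 7.8% and 13.9% in KO (adjusted p = 0.000224 for the gene, and 0.0233 with the block). Neither share overlapped between the groups, but the choice of the isoform genes named here required a transcript share without overlap.

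Sgip1-212, a transcript of the endocytic adaptor gene Sgip1 annotated without a coding sequence, went from 62.0%, 54.5% and 48.2% to 21.4%, 18.6% and 18.8% (adjusted p = 0.0422, and 0.133 with the block). Total Sgip1 rose by 1.06 on the log2 scale, and its coding transcripts Sgip1-201, Sgip1-202 and Sgip1-213 gained in share in every KO mouse. Sept9-204, of a cytoskeletal septin, went from 57.1%, 62.1% and 60.3% to 80.9%, 80.6% and 78.7% (adjusted p = 0.0884, and 0.144 with the block). Adcy3-201, of an adenylate cyclase, went from 27.4%, 27.8% and 26.8% to 1.3%, 0% and 2.5% (adjusted p = 0.0217, and 0.157 with the block). The shares of Sept9-204 and Adcy3-201 were tight within each group, and that of Sgip1-212 spread more in WT mice (SD 6.9 percentage points). Eps15-208, annotated for nonsense-mediated decay, went from 12%, 9.5% and 7.2% to 18.8%, 20.6% and 18.9% (adjusted p = 0.0217, and 0.104 with the block). Dgcr6-202 was higher in KO by 19.1 percentage points (adjusted p = 0.034, and 0.230 with the block), Pear1-205 by 12.3 (0.0065 and 0.0889) and Samd4b-201 by 7.5 (0.0422 and 0.130), with a wider spread among the KO mice.

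**Figure D5:**
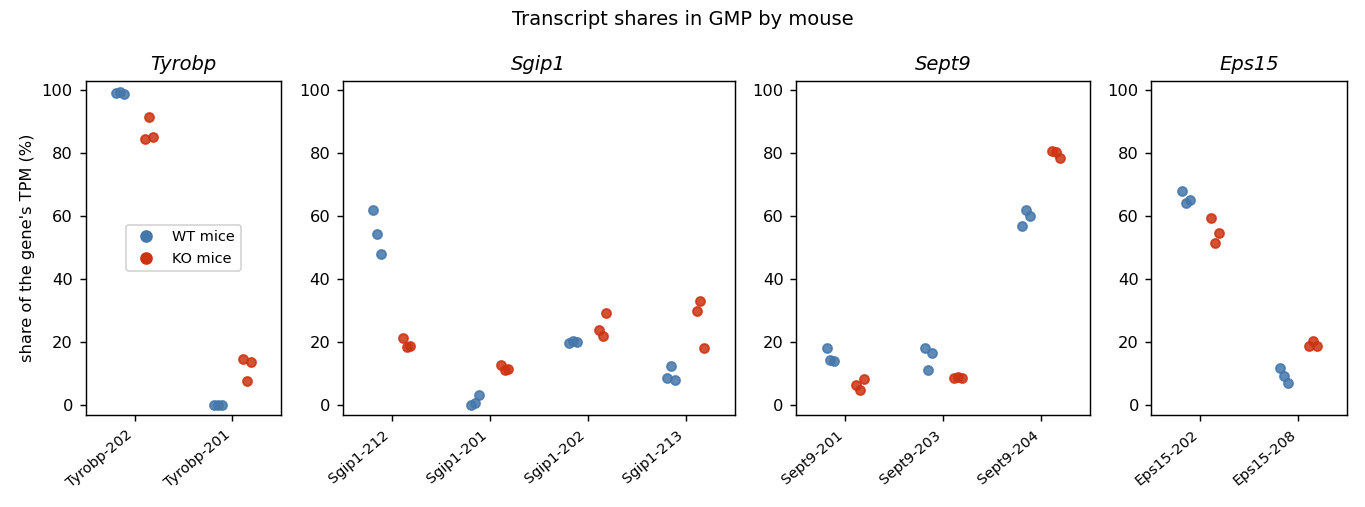
Share of the gene's TPM held by single transcripts, in percent, in each WT (blue) and KO (red) GMP library for Tyrobp, Sgip1, Sept9 and Eps15, showing transcripts whose groups did not overlap. Sept9-204 holds 57.1% to 62.1% in WT and 78.7% to 80.9% in KO mice.

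The effect of genotype in GMP was set against that in CMP and MEP of the same 6 mice, as an interaction. It differed from CMP for 21% of 18523 genes (higher in GMP for 10.9%, lower for 10%) and from MEP for 26.8% (14.6% and 12.2%). For 10 of 11 primary granule genes the effect was higher in GMP than in CMP, and for 10 of 11 it was higher than in MEP, with median differences of 1.25 and 1.08 on the log2 scale. Normalised over the 18 libraries, Mpo was at 24850 ± 1271 CPM in WT and 31310 ± 1704 in KO GMP, and at 3773 ± 392 and 1453 ± 396 in CMP (SD, n = 3 each). Elane was at 3816 ± 424 and 6492 ± 832 CPM in GMP and at 91.4 ± 8.07 and 51.2 ± 22.4 CPM in CMP. The 2 genes were thus higher in KO than in WT GMP and lower in KO than in WT CMP by their means, and the difference from MEP did not pass for Elane (adjusted p = 0.120). All 6 oxidase genes had a higher effect in GMP than in CMP, and 5 of 6 than in MEP. Late granule genes had a higher effect in GMP for 11 of 21 against CMP and 10 of 21 against MEP, and none had a lower one.

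Other groups had a lower effect in GMP than in CMP or MEP for part of their genes. This held for 11 of 22 basophil, mast cell and eosinophil genes against CMP and 7 of 22 against MEP, with 1 higher in each. Erythroid genes had a lower effect in GMP than in CMP for 17 of 21. Against MEP the erythroid list was split, with 4 of 21 lower and 3 higher. Stem and early progenitor genes had a lower effect for 8 of 30 against CMP, with 1 higher, and 12 of 30 against MEP, with 2 higher. Interferon response genes had a lower effect in GMP for 22 of 40 against CMP and 23 of 40 against MEP, with 2 higher against MEP. Within GMP, 11 of 38 interferon response genes were higher and 5 lower (median 0.16), with 2 lower without KO mouse 308, 3 without WT mouse 305 and 1 in the fit of 18 libraries, and with 6 higher without KO mouse 304 or WT mouse 309, 7 without WT mouse 300, 17 without WT mouse 305 and 18 with the mice paired by column. Igtp (an interferon-induced GTPase), Eif2ak2 (the kinase PKR, a sensor of double-stranded RNA) and Stat2 (a transcription factor of the type I interferon response) rose by 0.70, 0.48 and 0.53 on the log2 scale, and Ifi203 (an interferon-inducible gene) fell (-0.84). Exons of Ifi203 overlap Mndal on the same strand (means of 42.89 CPM in WT and 27.55 CPM in KO). Exons of Igtp overlap Irgm2 in the same way (14.26 and 20.94 CPM), so counts of both may be assigned to the wrong gene.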

How the data were processed

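Poly-A RNA of sorted GMP, CMP and MEP was sequenced by the authors, who pseudoaligned reads with kallisto to mouse transcripts (GRCm38, also named mm10) and deposited, per transcript and library, estimated counts, effective lengths and TPM values. The strand setting was not given in the sources used here, and LT-HSC libraries were not analysed here. Of 115088 deposited transcripts, 114200 were paired with genes through the GENCODE transcripts of the same build.

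Counts of a gene's transcripts were added up and rounded to whole numbers. Tests used R 4.3.3 and edgeR 4.0.16 (TMM, filterByExpr, quasi-likelihood F test, KO against WT, 3 mice each), with Benjamini-Hochberg adjustment over all genes and calls at an FDR of 0.1. CPM are TMM-normalised. The SE is the absolute log2 fold change over the square root of F. Isoform usage was tested with diffSpliceDGE. Interactions with CMP and MEP were fitted over 18 libraries with mouse as a block. Scripts were tested on simulated data with 200 genes changed. At a log2 change of 1 the edgeR gene test recovered 95% of them, and 11.6% of its calls were false. With DESeq2 96.5% were recovered and 24% of calls were false. The isoform test recovered 70.5%, with 5.4% of calls false.

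Named genes were, by rule, the 10 largest rises and falls above 1 FPKM with separate groups, among called protein coding genes the 5 with the largest gain and the 5 with the largest loss of mean TPM, up to 5 members of each list with the smallest p with the defining genes, 8 isoform genes and 6 interaction genes. The isoform genes were taken from called genes above 5 TPM with a transcript share that did not overlap between the groups. Other list members were named after their values were seen. The comparison, its gene lists and the tests were chosen with earlier results of these data known. Not each gene the rule allows is named, and some genes and a sequence are not reported here. The lists were not exclusive, so a gene can count in more than one. Exons of Ncf1, Csf1r, Ccnd3, Eng and Gfi1 overlap genes on the other strand, whose reads may be shared.

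Gene calls were also computed with median-of-ratios size factors, with no count filter, with a length offset, DESeq2 1.42.0, a term for the mice with few Y-linked counts, 1 fit of 18 libraries, each mouse left out, and the mice paired by column order of the study's expression table (300 with 301, 305 with 304, 309 with 308). Interactions were refitted with those size factors, with no filter, without the block of mice and without each mouse. Isoform usage was refitted with 2 other transcript limits, limma 3.58.1, the column pairs and without each mouse. Deviations from the group means correlated within these pairs (Pearson's r = 0.263, 0.237 and 0.208 over 16383 genes) and not in other pairs (-0.177 to -0.085). The pairing is a hint from that table and not from the labels.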

Additional observations from a re-analysis of the deposited data

Results flagged for a closer look

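For 6 genes named by the strength of the difference, the effect of genotype (log2 fold change, KO against WT) in GMP differed from that in both CMP and MEP when the difference itself was tested as an interaction in edgeR. The values given are the GMP effect less the other population's effect, and n was 3 mice per genotype and population.

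Eng (endoglin, a co-receptor of the TGF-beta family) had a difference of -1.84 from CMP and -1.73 from MEP. It was at 52.6 ± 2.13 CPM in WT and 15.7 ± 1.29 CPM in KO GMP (SD), against 134.5 ± 6.45 and 142.7 ± 6.71 in CMP. Tspan9 had differences of -4.85 and -5.89, and Adamts3 (a procollagen protease) of -3.01 and -2.94. Tspan9 was low in MEP, with means of 0.357 CPM in WT and 0.299 CPM in KO. Its means also fell in CMP, from 2.03 to 0.837 CPM. The noncoding Gm26809 had differences of -1.74 and -2.00. In Gm26809 the means moved opposite ways, from 104.4 to 47.6 CPM in GMP and from 198.3 to 296.7 CPM in CMP.

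Neu1 (a lysosomal sialidase) had differences of 1.85 from CMP and 2.09 from MEP, rising from 87.3 ± 7.85 to 245.6 ± 53.6 CPM in GMP. Its means were 18.8 and 14.6 CPM in CMP and 24.3 and 15.8 CPM in MEP. Anxa2 (annexin A2, which binds membranes) had differences of 1.56 and 1.89.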

How the results depend on the processing

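The number of genes called stayed within 1.5 times of 5550 under every alternative, from 4129 without WT mouse 309 to 7152 with the mice paired by column as a replicate block. Among named genes the block changed the calls of Arid1b, Siglecf and Chil3 and the sign of Cd177. It also gave 1 lower gene each in DNA replication and mitosis, 3 higher ribosomal protein genes and 3 lower sex chromosome genes, and other list counts it moved are given beside them. Without mouse as a block the genotype effect differed for 3256 genes between GMP and CMP and for 4361 between GMP and MEP, and leaving out single mice gave 2577 to 3637 for CMP, the lowest without WT mouse 309. Isoform calls were the least stable: 29 became 51 with transcripts from 5% of their gene, 15 with at least 50 counts, 14 with the block, 239 with limma, and 8 to 31 without single mice. The causes were not tested.

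Medians (log2) given in the text moved by more than the spread between mice as follows. Without mice 304 and 305 they were 0.29 for late granule, 0.33 for S100, 0.85 for NADPH oxidase, -1.26 for MHC class II, 0.0376 for cytokine receptor and 0.0577 for adhesion genes. Without a count filter they were -1.27 for MHC class II, -0.26 for B cell and 0.39 for pathogen and Fc receptor genes, and in 1 fit of 18 libraries -1.27 and -0.25 for the first pair. With the length offset they were -0.11 for transcription factors and 0.0124 for cytokine receptors. Without single mice the ranges were 0.41 to 1.04 for late granule, 0.17 to 0.30 for protease inhibitors, -0.22 to -0.14 for transcription factors, 0.0385 to 0.28 for AP-1, -0.40 to -0.20 for monocyte, -0.36 to -0.17 for dendritic, -1.32 to -0.88 for MHC class II, -2.12 to -1.70 for basophil, mast cell and eosinophil, -0.27 to 0.0681 for B cell, -0.95 to -0.37 for T and NK cell, 0.0866 to 0.47 for erythroid, 0.17 to 0.23 for mitosis, -0.0005 to 0.0271 for SWI/SNF, -0.022 to 0.0186 for cytokine receptor, -0.0591 to 0.0686 for adhesion, 0.10 to 0.20 for p53 and 0.0419 to 0.14 for cholesterol genes.

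Of the named genes, S100a9 turned to -0.12 without mice 304 and 305, the log2 fold change of Kit to 0.02 without WT mouse 300 and 0.0111 without KO mouse 308 (lowest -0.0778, without WT mouse 305), and Fcgr3 to -0.0891 without KO mouse 304, -0.03 without WT mouse 305 and -0.13 without both. The log2 fold change of Cd177 turned to -0.0483 with the block, -0.1016 with the Y-linked term, -0.6877 without KO mouse 304, -0.2032 without WT mouse 305, -0.0711 without WT mouse 309 and -0.9372 without mice 304 and 305, and the log2 fold change of Ngp to -0.5292, -0.1821, -0.0436 and -0.9024 in the last 4 of these (highest 0.5104 and 1.0898, without WT mouse 300). None of them was called in the main test. The plasma cell median (-0.39) was -1.13 without a count filter, -1.54 in 1 fit of 18 libraries and -0.84 to -0.41 without single mice. No median is given for stefin A genes, whose fitted changes rest on genes without counts in WT. Estimated counts carry assignment error that these tests do not include.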

Other observations

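Gene groups outside blood cell identity were counted as well, against 17.5% of all genes higher and 16.3% lower. Of 20 p53 response genes 8 were higher (40%) and 4 lower (20%, median log2 fold change 0.18). Pmaip1 (NOXA, a death-promoting BH3 protein) rose (2.29, SE 0.16) and Bbc3 (PUMA, of the same class) fell (-0.50, SE 0.18), a call lost without any one of WT mouse 300 (adjusted p = 0.148), KO mouse 304 (0.134), KO mouse 308 (0.219) or WT mouse 309 (0.194) and without a count filter (0.111). The death receptor gene Eda2r fell (-2.01, SE 0.49) and Fas rose (0.89, SE 0.25), which was not called without mice 304 and 305 (adjusted p = 0.171). Of 17 genes of ATF4 targets and serine synthesis 5 were higher (29.4%) and 2 lower (11.8%, median -0.04). Chac1, which degrades glutathione, and Cth, which makes cysteine, rose (2.19 and 2.12), whereas Phgdh and Psat1, the first enzymes of serine synthesis, fell (-0.51 and -0.55). Of 24 cholesterol synthesis genes 6 were higher (25%) and 2 lower (8.3%, median 0.09), and 4 were higher without KO mouse 301 or WT mouse 309, and 1 was lower without KO mouse 308.

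Of 15 AP-1 and immediate early genes 3 were higher (20%) and 2 lower (13.3%, median 0.13), near the shares over all genes. Fos (an immediate early gene of the AP-1 family) was at 3.17, 5.16 and 4.96 CPM in WT and 16.97, 23.6 and 22.6 CPM in KO (log2 fold change 2.25, SE 0.20, adjusted p = 6.26e-05). Of 83 ribosomal protein genes 8 were lower and none higher (median -0.11). That count was 2 without WT mouse 300 or KO mouse 304, 3 without WT mouse 309, 4 without KO mouse 308, 43 without WT mouse 305, 28 without mice 304 and 305 and 41 with the mice paired by column. Of 14 GMP identity genes 7 were higher and 4 lower (median 0.17), with 1 lower when 18 libraries shared 1 fit. Of 5 sex chromosome genes 1 was lower, and the 6 GMP donors differed in these genes as given at the start.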
